A study of Homo sapiens with 24 samples.

Results

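GAS5 and 9 genes of the SNHG family (SNHG1, SNHG3, SNHG5, SNHG6, SNHG7, SNHG8, SNHG12, SNHG15 and SNHG16) were followed through 24 RNA libraries of a mesothelioma cell line. They were taken by name as noncoding genes that carry small nucleolar RNAs (snoRNAs) in their introns, and all 10 were found among the 57500 gene identifiers counted. Each of the 10 passed the default filter on low counts in every fit, with 53 to 13794 counts per library. The cells were H2052, a line grown out of a human pleural mesothelioma, and they received a microRNA mimic with biotin on its 3′ end at 20 nM. The mimic was miR-497-5p-RE, a form of miR-497-5p whose suffix the labels do not explain, or Control, a scrambled mimic without an intended target.

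Cells were collected 72 h and 12 h after transfection. At each time, RNA retained on streptavidin beads from a cytoplasmic extract (pull-down) and RNA of the same kind of culture without that step (RNA-seq) were made into poly(A)-selected libraries, 3 for each of 8 groups. The groups were pull-down with miR-497-5p-RE, pull-down with Control, RNA-seq with miR-497-5p-RE and RNA-seq with Control, each at 72 h and at 12 h. Control cells carried a biotinylated mimic as well, so no group shows untransfected cells. The whole study rests on 1 cell line, and the labels do not tell whether the 3 libraries of a group came from separate cultures. The p-values therefore reflect spread between libraries that may be technical.

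Library totals ran from 8262425 to 30650982 counts in the pull-down and from 21561816 to 30602007 in RNA-seq. The lowest total belonged to replicate 2 of the 72 h pull-down with miR-497-5p-RE. The biological coefficient of variation was 0.349 in the pull-down and 0.0601 in RNA-seq, so the pull-down resolves only larger differences. CPM are read counts relative to library size, after TMM scaling for the 10 genes and without it for the markers. Of the mesothelial markers, MSLN held 42.7 to 197 CPM, while CALB2, which encodes calretinin, stayed between 0.515 and 4.72 CPM. The 12 mesothelial markers together held 3870 to 5980 CPM. Most of that sum came from KRT8, KRT18, KRT19 and VIM, with medians of 988, 1080, 1060 and 1260 CPM. The median of MSLN was 99.6 CPM, and those of the other markers ran from 0.196 CPM (UPK3B) to 31 CPM (CDH2). Markers of leukocytes (4 genes) summed to at most 14.4 CPM and those of endothelium (3 genes) to at most 3.19 CPM. The 13 squamous epithelial markers summed to 48.8 to 69.8 CPM in the 72 h pull-down, 149 to 171 CPM in 72 h RNA-seq, 120 to 456 CPM in the 12 h pull-down and 107 to 443 CPM in 12 h RNA-seq. Of these, KRT10 alone held 44.6 to 167 CPM over all libraries, and every other one had a median of at most 2.95 CPM. At 72 h, 8 to 9 of the 13 held no counts in a pull-down library and 5 to 7 in an RNA-seq library. The part of the squamous markers in the results was not tested.

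A snoRNA host gene is transcribed and spliced like a messenger RNA gene, and the snoRNAs are trimmed out of its excised introns. Box C/D snoRNAs guide methylation of ribosomal RNA and box H/ACA snoRNAs guide its pseudouridylation, while the spliced host RNA is exported and, for GAS5, is known to be translated over a short frame and destroyed by nonsense-mediated decay. GAS5 (growth arrest-specific 5) accumulates when cells stop growing, and its RNA begins with a run of pyrimidines like the messages of ribosomal proteins. Such a start, the 5′ terminal oligopyrimidine or TOP motif, couples translation to growth signals.

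Transcript starts of 6 of the genes are shown because the TOP motif is read from them, SNHG15 standing for those without a long run. Each line gives 30 bases of GRCh38 on the gene's strand, from 10 bases before the start of the GENCODE canonical transcript, with the longest run of C and T in capitals.
GAS5: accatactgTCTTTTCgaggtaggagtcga
SNHG16: cgTTCTTTTCgaggtcggccgcgtggctgg
SNHG8: gcgCTTCCCCCggaatagcgtcatcagttc
SNHG7: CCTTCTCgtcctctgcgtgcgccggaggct
SNHG5: ggagctactggctgcgcacttcggTCTTTT
SNHG15: aggcaccaCCCattaggggctcagcgcgtc
A run of at least 6 pyrimidines lay in the windows of 6 of the 10 genes (60.0%). The share was 31.7% of 18866 lncRNA transcripts, 29.1% of 20046 protein-coding ones and 89.6% of 77 from cytosolic ribosomal protein genes. GAS5 (chromosome 1, 173858559 to 173868882, minus strand) and SNHG16 (chromosome 17, 76557727 to 76670985, plus strand) share the 12 bases TCTTTTCGAGGT, which no other of the 38912 canonical starts searched holds. In SNHG5 the run lies downstream of the annotated start, and in SNHG7 and SNHG16 it lies wholly upstream, outside the annotated transcript. A run in these windows is a description of the letters, not a mapped start.

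The other sequences that matter here are those that could pair with the mimic. The mature miR-497-5p in RefSeq is shown with its seed, bases 2 to 8, in capitals. Below it stands 1 site from the counted exons of each of the 3 genes that hold a full match to the seed, with the matched bases in capitals.
hsa-miR-497-5p: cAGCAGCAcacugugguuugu
SNHG16 8mer site: gccctgcctcTGCTGCTAattgttcctc
SNHG12 7mer-m8 site: cgctagtcgcTGCTGCTggcgcgcactc
SNHG1 7mer-m8 site: agtgatgaatTGCTGCTcaccagtgatg
The words searched, on the transcribed strand, were TGCTGCTA (8mer), TGCTGCT (7mer-m8), GCTGCTA (7mer-A1) and GCTGCT (6mer), each longer word containing the 6mer. The SNHG16 site shown lies at 76563164 to 76563171 on the plus strand of chromosome 17. SNHG12 held 1 site that matches the whole seed, at 28581782 to 28581788 on the minus strand of chromosome 1, and SNHG1 held 1, at 62853394 to 62853400 on the minus strand of chromosome 11. The SNHG12 site lies in an exon of the canonical transcript, whereas those shown for SNHG16 and SNHG1 lie in exons of other annotated transcripts only. SNHG7 held 2 sites of the 6mer kind, and GAS5, SNHG3, SNHG5, SNHG6, SNHG8 and SNHG15 held no match in their counted exons. Among lncRNA genes within 20% of the same counted length, 55.6% held a 7mer-m8 or 8mer site for the length of SNHG16, 36.3% for SNHG12 and 39.7% for SNHG1.

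The length over which reads were counted differs from that of the GENCODE canonical transcript. It was longer for 8 of the 10 genes and shorter for SNHG6 (1247 against 1821 bases) and SNHG8 (923 against 6166 bases). GAS5 was counted over 3631 bases, against 768 bases in its canonical transcript of 12 exons, and SNHG16 over 5362 against 498 bases. The files used here hold 25 snoRNA identifiers inside 9 of the genes. Of these, 22 lie at least partly within counted host exons and held at most 1 count in any library. The others were SNORA73B in SNHG3, SNORD99 in SNHG12 and SNORD1B in SNHG16, with medians of 5.5, 6 and 0 counts. The values below therefore describe polyadenylated host RNA and say nothing of the level of the snoRNAs.

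Per kilobase of counted exon, the 10 genes spanned a wide range of levels in RNA-seq. In Control cells at 72 h, SNHG6 stood first at 248 ± 4.93 CPM per kb (SD, n = 3), followed by SNHG5 at 192 ± 2.91, SNHG16 at 63.9 ± 0.764, SNHG8 at 42.5 ± 1.12, SNHG1 at 28.9 ± 0.555 and GAS5 at 23.5 ± 1.28 CPM per kb. SNHG3 at 9.6 ± 0.602 and SNHG12 at 9.11 ± 0.0498 CPM per kb did not differ beyond their spread. SNHG7 (8.6 ± 0.0731) and SNHG15 (6.31 ± 0.179) closed the order. In Control cells at 12 h, SNHG5 and SNHG6 led with overlapping spreads (71.9 ± 1.35 and 70.5 ± 1.22 CPM per kb), GAS5 stood behind SNHG3 (6.97 ± 0.183 and 8.47 ± 0.337 CPM per kb), and SNHG7 came last at 2.83 ± 0.222 CPM per kb. These values and their order depend on the counted length.

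Within RNA-seq, the largest differences among the 10 genes were between the 2 collection times. In Control RNA-seq libraries all 10 rose at 72 h relative to 12 h, with a median log2 fold change of 0.89, against 0 over all genes tested. Over all 17335 genes tested, 74.4% passed an adjusted p of 0.05 and 36.1% passed upward. P-values here and below come from edgeR's quasi-likelihood test with Benjamini-Hochberg adjustment over all genes tested, values after ± are standard errors unless marked SD, and a gene that passed is said to have risen or fallen. The times were separate collections, so time since transfection and the collection itself cannot be told apart.

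GAS5 held 85.6, 89.6 and 80.3 CPM in Control cells at 72 h, against 24.6, 26 and 25.3 CPM at 12 h. Every 72 h library lay far above every 12 h library, and the log2 fold change was 1.75 ± 0.05 (adjusted p = 2.12e-31). SNHG6, host of the box C/D snoRNA SNORD87, held 310, 304 and 316 CPM at 72 h, against 86.3, 88 and 89.4 CPM at 12 h. Its log2 fold change of 1.82 ± 0.04 (adjusted p = 5.89e-38) was the highest of the 10. SNHG7, host of the H/ACA snoRNA SNORA17, rose by 1.6 ± 0.07 (adjusted p = 1.74e-24), SNHG5, host of SNORD50B, by 1.41 ± 0.04 (adjusted p = 3.2e-34) and SNHG12, host of SNORA61, SNORA44, SNORA16A and SNORD99, by 1.21 ± 0.07 (adjusted p = 1.89e-19).

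The other 5 rose by less. SNHG15, host of SNORA9, rose by 0.56 ± 0.07, SNHG8, host of SNORA24, by 0.53 ± 0.07 and SNHG16, host of SNORD1A, SNORD1B and SNORD1C, by 0.49 ± 0.03 on the log2 scale (adjusted p of 3.2e-09, 3.94e-09 and 8.36e-18). SNHG1, host of a cluster of box C/D snoRNAs from SNORD22 to SNORD30, changed by 0.19 ± 0.04 (adjusted p = 4.6e-05), and SNHG3, host of SNORA73A and SNORA73B, by 0.18 ± 0.06 (adjusted p = 0.0065). These last rises depend on the scaling. Scaling by library totals moved the median of all genes by -0.25, gave SNHG1 -0.06 and SNHG3 -0.07 and left 8 of the 10 genes called, all upward. With an offset for transcript length SNHG8 turned to -0.16 (adjusted p = 0.032), leaving 9 genes upward and 1 downward. SNHG3 also lost its call without replicate 3 of the Control at 72 h or at 12 h.

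**Figure D1:**
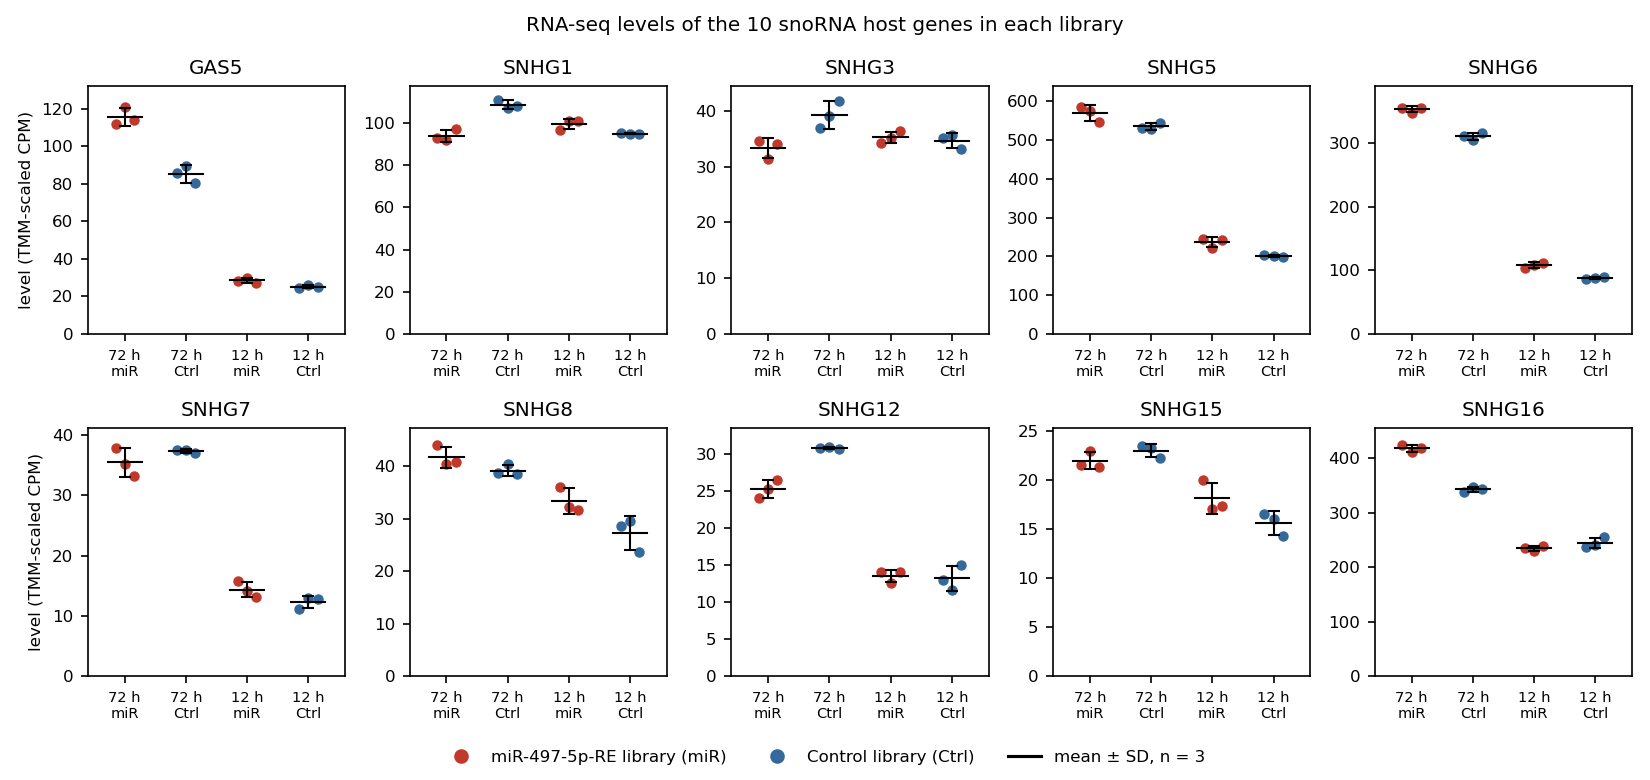
RNA-seq levels in CPM (vertical axis, from 0, with its own range in each panel) of the 10 genes in the 3 libraries of each group, miR-497-5p-RE in red and Control in blue, with the mean and SD. GAS5, SNHG5, SNHG6, SNHG7 and SNHG12 stand far higher in all 72 h libraries than in all 12 h libraries, while SNHG1 and SNHG3 lie close to level.

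Other genes around snoRNAs moved in different directions over the same interval. Of 19 further noncoding snoRNA hosts tested, 16 rose and 1 fell in Control cells at 72 h relative to 12 h, with a median of 0.56. DANCR rose by 1.58 ± 0.05, ZFAS1 by 1.26 ± 0.03 and SNHG18 by 1.32 ± 0.05 on the log2 scale. Of 21 listed protein-coding snoRNA hosts, 7 rose and 13 fell, with a median of -0.61. That list is a selection without any RPL or RPS gene, so its counts describe the listed genes only. HSPA8, a chaperone gene, changed by -1.66 ± 0.03 and NCL, which encodes nucleolin, by -1.31 ± 0.03, whereas EEF2, the translation elongation factor with a TOP message, rose by 1.6 ± 0.03.

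Genes of the proteins that assemble with snoRNAs mostly fell. Of 11 box C/D genes 2 rose and 9 fell (median -0.63), among them RUVBL1, an assembly ATPase, at -1.19 ± 0.05 and FBL, the methyltransferase fibrillarin, at -0.74 ± 0.04. Of 6 box H/ACA genes 2 rose and 4 fell (median -1.19), with DKC1, the pseudouridine synthase dyskerin, at -1.05 ± 0.04 and GAR1 at -1.51 ± 0.07. Of 14 factors of nonsense-mediated decay 3 rose and 9 fell (median -0.56), led by EIF4A3 at -1.95 ± 0.05 and MAGOH at -1.31 ± 0.06, which encode parts of the exon junction complex. These counts stand beside the 36.1% of all genes that rose and the 38.4% that fell.

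**Figure D2:**
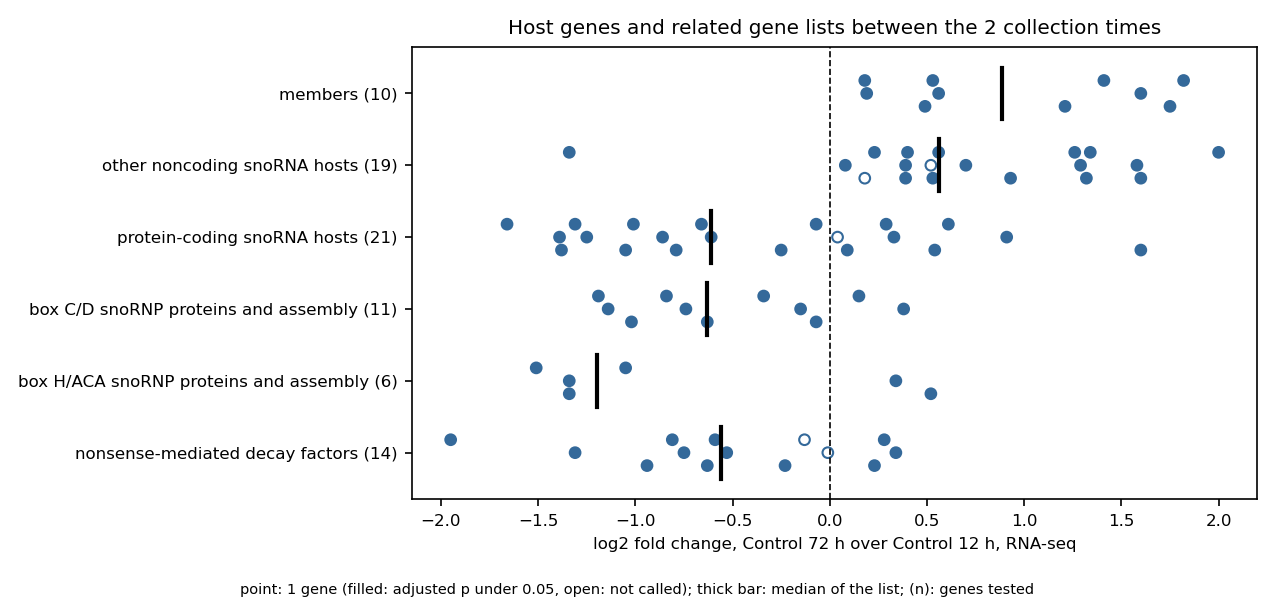
Log2 fold change of Control RNA-seq at 72 h over 12 h (horizontal axis) for the 10 genes and the genes of 5 related lists, 1 point per gene and a bar at each median. The members' median lies at 0.89 and that of the other noncoding hosts at 0.56, while the medians of the 4 protein-coding lists lie between -1.19 and -0.56. The list of protein-coding hosts holds no RPL or RPS gene.

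The genes whose levels followed GAS5 most closely over the 4 RNA-seq groups were found among 10719 genes averaging 5 CPM or more. The measure was the root mean square difference of centred log2 group means over these 4 groups. In order they were RPS2P46 (0.0254), PICSAR (0.0263), RPL7A (0.0302), RPL32 (0.0441) and RPL29 (0.0447). RPL7A, RPL32 and RPL29 encode proteins of the large ribosomal subunit, PICSAR is a lncRNA, and RPS2P46 is a pseudogene whose reads may belong to its parent gene. These ribosomal protein genes are not in the list of protein-coding hosts above. In Control cells their centred log2 means went from -1.05 each at 12 h to 0.76, 0.71 and 0.74 at 72 h. SNHG6 ranked at 54, SNHG7 at 405 and SNHG5 at 445, and the other members ranked from 1082 (SNHG12) to 4555 (SNHG3).

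At 72 h, miR-497-5p-RE moved the host genes in both directions. Relative to Control, 4 of the 10 rose (GAS5, SNHG16, SNHG6 and SNHG5) and 3 fell (SNHG12, SNHG3 and SNHG1), with a median of 0.01 against 0 over all genes. Of all genes, 57.5% passed, 27.9% upward and 29.6% downward, so a share of 7 in 10 lies near the background. The largest change was that of GAS5, which held 112, 121 and 114 CPM in miR-497-5p-RE cells, against 85.6, 89.6 and 80.3 CPM in Control cells. The arms did not overlap, and the log2 fold change was 0.44 ± 0.05 (adjusted p = 5.01e-11).

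SNHG16 was next, with 424, 412 and 419 CPM in miR-497-5p-RE cells, against 339, 347 and 343 CPM in Control cells. All 3 treated libraries lay above all Control libraries, with a log2 fold change of 0.29 ± 0.03 (adjusted p = 2.34e-10). SNHG6 held 355, 347 and 355 CPM against 310, 304 and 316 CPM in Control cells (0.19 ± 0.03, adjusted p = 9.31e-06). SNHG5 held 586, 576 and 548 CPM against 532, 530 and 545 CPM in Control cells (0.09 ± 0.03, adjusted p = 0.0244). The SNHG5 difference was not robust: it turned to -0.02 when scaled by library totals, which moved the median of all genes by -0.1, and lost its call without a filter on low counts or without replicate 1 or 2 of either arm.

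The 3 genes that fell did so by similar amounts. SNHG12 held 24, 25.3 and 26.5 CPM in miR-497-5p-RE cells, against 30.8, 30.9 and 30.6 CPM in Control cells, a log2 fold change of -0.28 ± 0.07 (adjusted p = 0.00075). SNHG3 held 34.6, 31.3 and 34.1 CPM against 36.9, 39 and 41.8 CPM in Control cells (-0.23 ± 0.06, adjusted p = 0.00111), and SNHG1 held 93.1, 91.9 and 97.3 CPM against 111, 107 and 108 CPM in Control cells (-0.2 ± 0.04, adjusted p = 3.36e-05). In each of the 3, every treated library lay below every Control library. SNHG7 (-0.08 ± 0.07), SNHG15 (-0.07 ± 0.07) and SNHG8 (0.09 ± 0.07) were not called. The arms did not overlap in 8 of the 10 genes, against 63.7% of all genes. Scaling by library totals gave 3 genes higher and 5 lower, adding SNHG7 (-0.18) and SNHG15 (-0.17) to those that fell.

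Some of these genes share exons or starts with protein-coding neighbours, and whether reads were assigned by strand is not given here. SNHG7 shares 1094 exonic bases with DIPK1B on the opposite strand, and DIPK1B rose with miR-497-5p-RE at 72 h by 0.52 ± 0.05 while SNHG7 was not called. SNHG3 shares 242 exonic bases with RCC1 on the same strand, and RCC1 fell by 0.68 on the log2 scale. SNHG1 and SLC3A2, the amino acid transporter heavy chain gene, start 188 bases apart in opposite directions, and SLC3A2 fell by 0.71. In Control cells at 72 h over 12 h, DIPK1B stood at 1.01 ± 0.05, RCC1 at -0.49 ± 0.04 and SLC3A2 at -1 ± 0.04. The part of these neighbours in the counts of the host genes was not tested.

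At 12 h, the changes called with miR-497-5p-RE were small and upward. Of the 10 genes 6 rose and none fell, with a median of 0.19 against 0.01 over all genes, of which 12.5% passed in either direction, 7.25% upward and 5.3% downward. SNHG6 rose by 0.3 ± 0.04 (adjusted p = 5.36e-08), with 103, 109 and 112 CPM in miR-497-5p-RE cells, against 86.3, 88 and 89.4 CPM in Control cells. SNHG5 rose by 0.24 ± 0.04 (adjusted p = 1.96e-06), with 246, 223 and 243 CPM against 205, 200 and 198 CPM in Control cells. In both genes the arms stood apart, and both kept their calls under every alternative tried.

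SNHG8 held 36.1, 32.2 and 31.7 CPM in miR-497-5p-RE cells, against 28.6, 29.5 and 23.6 CPM in Control cells (0.29 ± 0.07, adjusted p = 0.00225). GAS5 held 28.3, 30 and 27.3 CPM against 24.6, 26 and 25.3 CPM in Control cells (0.17 ± 0.05, adjusted p = 0.0272). SNHG7 (0.22 ± 0.08, adjusted p = 0.0471) and SNHG15 (0.21 ± 0.07, adjusted p = 0.0457) passed narrowly. The calls of these 4 genes were fragile. Without replicate 3 of the 12 h Control only SNHG5 and SNHG6 passed, and SNHG8 had an adjusted p of 0.0628. GAS5 also lost its call without replicate 1 of the Control or replicate 2 of miR-497-5p-RE, SNHG15 without replicate 2 of the Control or replicate 1 of miR-497-5p-RE, and SNHG7 without any library but replicate 3 of miR-497-5p-RE. Without a filter on low counts, with the length offset, or in a fit of the 6 libraries alone, 3 genes passed, and with DESeq2 neither SNHG7 nor SNHG15 did. SNHG1 (0.07 ± 0.04), SNHG3 (0.03 ± 0.06), SNHG12 (0.03 ± 0.08) and SNHG16 (-0.06 ± 0.03) were not called. Scaling by library totals gave 3 genes higher and 1 lower, SNHG16 being the lower one at -0.11. The arms did not overlap in 7 of the 10, against 25.7% of all genes.

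The effect of the mimic differed between 72 h and 12 h in 8 of the 10 genes, against 48.8% of all genes. It was higher at 72 h for SNHG16 (0.29 at 72 h and -0.06 at 12 h, a difference of 0.34 ± 0.05, adjusted p = 2.35e-08) and for GAS5 (0.44 and 0.17, a difference of 0.27 ± 0.07, adjusted p = 0.0017). It was lower at 72 h for SNHG12 (-0.31 ± 0.11), SNHG7 (-0.3 ± 0.1), SNHG15 (-0.28 ± 0.1), SNHG1 (-0.27 ± 0.06), SNHG3 (-0.26 ± 0.09) and SNHG5 (-0.15 ± 0.05), with adjusted p between 8.17e-05 and 0.0224. Upward differences were called for 22.5% and downward ones for 26.2% of all genes. With the length offset the members called fell to 3, and SNHG5 turned to 0.02, while GAS5, SNHG1 and SNHG16 kept their calls under every alternative tried. Without replicate 3 of miR-497-5p-RE at 72 h, 5 genes passed.

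Among the related lists, 4 of the 19 other noncoding hosts were called upward at 12 h with miR-497-5p-RE and none downward, against 7.25% of all genes upward and 5.3% downward, and the other 15 were not called. ZFAS1, a host of box C/D snoRNAs, rose by 0.23 ± 0.03, SNHG32 by 0.15 ± 0.04 and SNHG29 by 0.11 ± 0.03. At 72 h 6 of the 19 rose and 2 fell, against 27.9% of all genes upward and 29.6% downward. SNHG14 stood at 1.09 ± 0.1, SNHG18 at 0.63 ± 0.04 and SNHG29 at -0.28 ± 0.03. Of the 21 protein-coding hosts 10 rose and 8 fell at 72 h, beside the same shares of all genes. TOMM20 of the mitochondrial import receptor rose by 1.38 ± 0.04, TAF1D by 0.95 ± 0.03 and EIF4A2 by 0.76 ± 0.04. At 12 h, 3 of these 21 rose and 5 fell, RACK1 by 0.12 ± 0.03 and EEF1B2 by 0.14 ± 0.03 upward and IPO7 by -0.15 ± 0.04 downward.

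The snoRNP protein genes went both ways at 72 h, where 27.9% of all genes rose and 29.6% fell. At 72 h 3 of 11 box C/D genes rose and 5 fell, with NOP58 at 0.6 ± 0.04 and ZNHIT6 at 1.07 ± 0.1 upward and the ATPase gene RUVBL2 at -0.43 ± 0.04 downward. Of the 6 box H/ACA genes 1 rose and 4 fell, NHP2 by -0.61 ± 0.04, NOP10 by -0.36 ± 0.05 and DKC1 by -0.26 ± 0.05. At 12 h, 3 box C/D and 2 box H/ACA genes rose and none fell, led by SNU13 at 0.22 ± 0.03 and NOP10 at 0.36 ± 0.05. Of all genes 7.25% rose and 5.3% fell at that time.

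Because the spliced GAS5 RNA is a known substrate of nonsense-mediated decay, the genes of that pathway were also counted. With miR-497-5p-RE at 72 h, 5 of 14 rose and 7 fell, with a median of -0.26, while 27.9% of all genes rose and 29.6% fell. SMG5, which recruits decay enzymes, fell by 1.14 on the log2 scale, RBM8A, part of the exon junction complex, fell by 0.75, and UPF3A rose by 0.78 ± 0.04. At 12 h, 7.25% of all genes rose and 5.3% fell. Of the decay factors 2 rose (EIF4A3 by 0.16 ± 0.05 and MAGOH by 0.17 ± 0.05) and 1 fell, the helicase gene UPF1 at -0.19 ± 0.05. The part of these changes in the level of GAS5 was not tested.

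**Figure D3:**
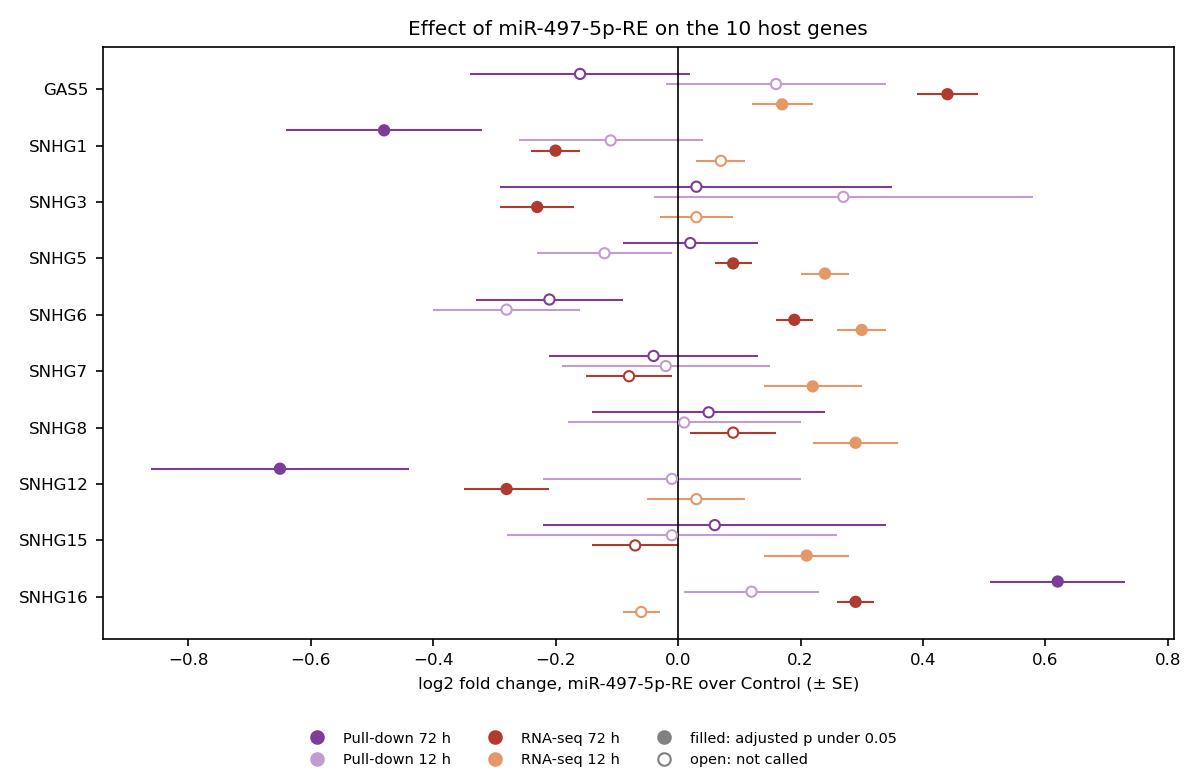
Log2 fold change of miR-497-5p-RE over Control with its standard error (horizontal axis) for each gene in the pull-down and in RNA-seq at both times, filled where the adjusted p was under 0.05. SNHG16 lies to the right in both assays at 72 h, SNHG1 and SNHG12 to the left in both, and GAS5 to the right in RNA-seq only among called values.

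The pull-down libraries address which RNAs were retained with the biotinylated mimic. At 72 h SNHG16 was the only member of the 10 that rose in the pull-down with miR-497-5p-RE relative to the Control pull-down, and SNHG12 and SNHG1 fell. Of all 17477 genes tested 22.7% passed, 10.2% upward and 12.6% downward. SNHG16 held 198, 194 and 182 CPM with miR-497-5p-RE, against 110, 123 and 140 CPM with Control. The arms stood apart, with a log2 fold change of 0.62 ± 0.11 (adjusted p = 0.000155) that passed under every alternative tried, between 0.53 and 0.71.

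SNHG12, which holds the seed match in its canonical transcript, went the other way, with 20.8, 24 and 20.1 CPM in the pull-down with miR-497-5p-RE, against 33.8, 37.4 and 29.9 CPM with Control (-0.65 ± 0.21, adjusted p = 0.0278). SNHG1 held 16.3, 22.3 and 27.9 CPM against 29.4, 34.4 and 28.8 CPM with Control (-0.48 ± 0.16, adjusted p = 0.0321). Every treated library lay below every Control library in both. Both calls were lost with the length offset, which left 1 member called, and without replicate 2 of the Control or replicate 1 of the miR-497-5p-RE pull-down. SNHG12 was also lost without replicate 1 of the Control or replicate 3 of miR-497-5p-RE, and SNHG1 without replicate 2 of miR-497-5p-RE, with scaling by DESeq2 size factors and in a fit of the 6 libraries alone. SNHG6 was called in that last fit only (-0.2, adjusted p = 0.0286). GAS5 held 64.8, 42.5 and 57.8 CPM against 59.2, 60.1 and 65.9 CPM with Control, overlapping arms and a log2 fold change of -0.16 ± 0.18 (adjusted p = 0.602). Its lowest value was in the library with the lowest total. The 7 genes not called lay between -0.21 and 0.06. The arms did not overlap in 4 of the 10 genes, the 3 called ones and SNHG6, against 35.5% of all genes.

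The related lists were also mixed in the 72 h pull-down with miR-497-5p-RE relative to Control, where 10.2% of all genes rose and 12.6% fell. Of the 19 other noncoding hosts 2 rose, SNHG14 by 1.74 ± 0.3 and SNHG18 by 0.82 ± 0.12, and SNHG32 fell (-0.39 ± 0.11). Of the 21 protein-coding hosts 8 rose and 3 fell, with TOMM20 at 1.42 ± 0.09, EEF2 at 0.97 ± 0.07 and TAF1D at 0.63 ± 0.09. Of 11 box C/D genes 2 rose, NOP58 by 0.55 ± 0.12 and NOP56 by 0.28 ± 0.08, and SNU13, which binds the snoRNA first, stood at -1.28 ± 0.08. Of 6 box H/ACA genes NOP10 (-0.73 ± 0.15) and DKC1 (-0.43 ± 0.12) fell, and of 14 decay factors 3 rose and 3 fell, with UPF2 at 1.05 ± 0.13, MAGOH at -1.54 ± 0.18 and SMG5 at -0.69 ± 0.09. At 12 h 1 gene of the 5 lists passed, the protein-coding host HSPA8 at 0.83 ± 0.12, against 0.595% of all genes.

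At 12 h none of the 10 genes passed in the pull-down with edgeR or with DESeq2, and 1, SNHG6, had an unadjusted p under 0.05. Of all genes 0.595% passed, 0.326% upward and 0.269% downward. SNHG6 held 122, 101 and 91.9 CPM with miR-497-5p-RE, against 115, 115 and 152 CPM with Control (-0.28 ± 0.12, adjusted p = 0.409). SNHG16 held 325, 256 and 299 CPM against 252, 246 and 311 CPM with Control. The arms overlapped in all 10 genes, with log2 fold changes from -0.28 to 0.27 and standard errors of 0.11 to 0.31, and they did not overlap in 16.4% of all genes. The effect in the pull-down was higher at 72 h than at 12 h for SNHG16 (0.5 ± 0.16, adjusted p = 0.0358) and was called for no other member, against 12.2% of all genes, 5.94% upward and 6.27% downward. That call was lost with scaling by library totals and without replicate 1 or 2 of either arm at 72 h, replicate 3 of the Control at 12 h or replicate 2 of miR-497-5p-RE at 12 h.

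**Figure D4:**
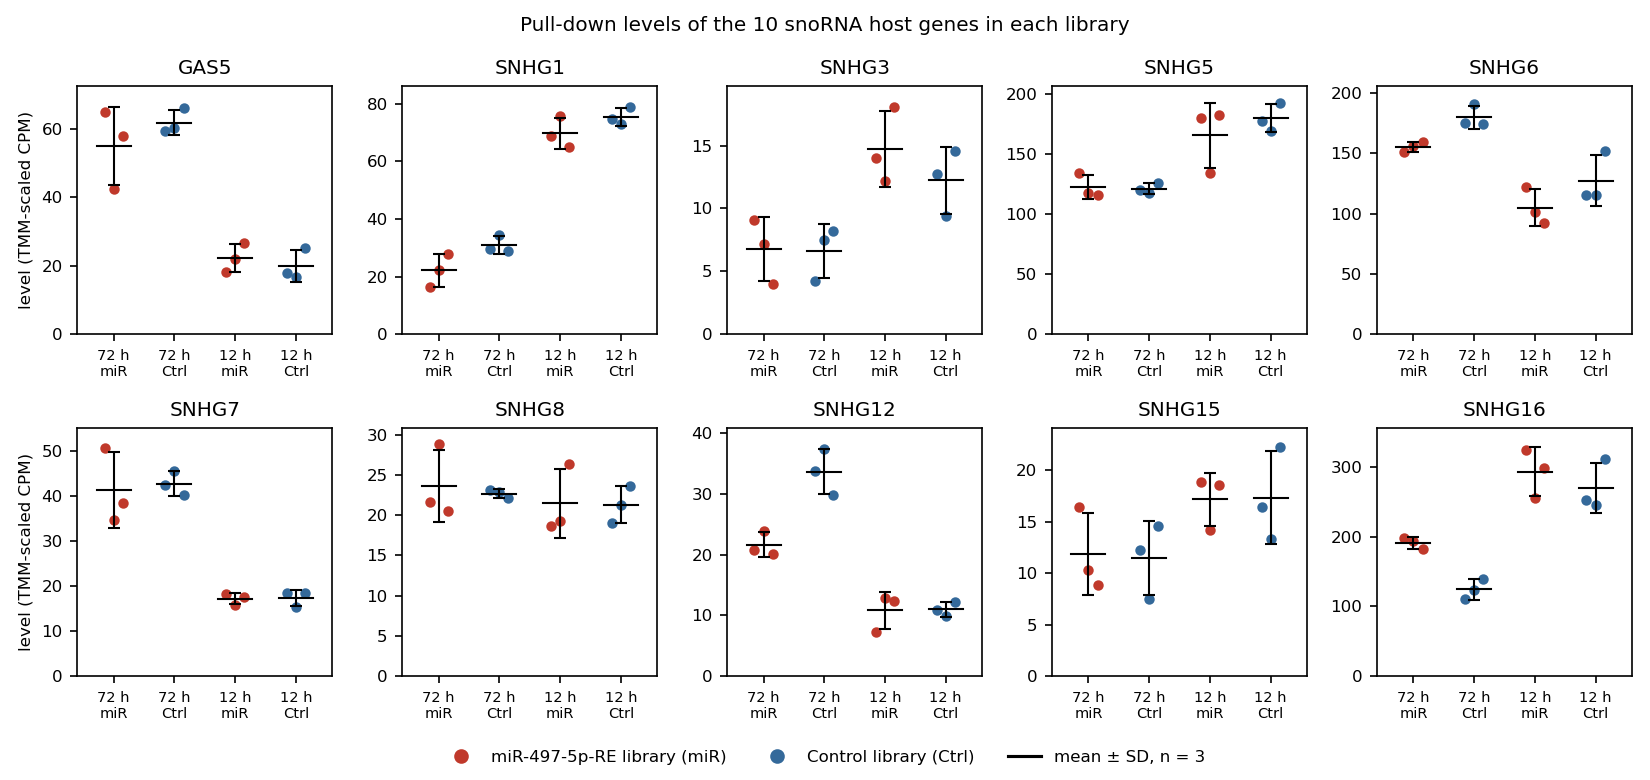
Pull-down levels in CPM (vertical axis, from 0, with its own range in each panel) of the 10 genes in the 3 libraries of each group, with the mean and SD. In SNHG16 the 3 libraries with miR-497-5p-RE at 72 h (182 to 198 CPM) lie above the 3 with Control (110 to 140 CPM), and in SNHG12 they lie below.

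A gene that rises in the cells may also rise in the pull-down, so the effect in the pull-down was set against that in RNA-seq. At 72 h the difference was positive for SNHG16 and negative for GAS5 and SNHG6, against 14.5% of all genes called, 7.46% upward and 7.01% downward. SNHG16 stood at 0.32 ± 0.09 (adjusted p = 0.0282). GAS5 rose in RNA-seq with no called change in the pull-down, and the difference was -0.61 ± 0.15 (adjusted p = 0.00848). SNHG6 behaved likewise, with 151, 156 and 159 CPM in the pull-down with miR-497-5p-RE, against 175, 191 and 174 CPM with Control, and a difference of -0.42 ± 0.06 (adjusted p = 0.000144). The 7 other genes lay between -0.39 and 0.24, of which SNHG12 passed without replicate 2 of the miR-497-5p-RE pull-down (-0.46, adjusted p = 0.0483) and SNHG1 without its replicate 3 (-0.53, adjusted p = 0.0238).

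The calls of GAS5 and SNHG6 held under every alternative tried. That of SNHG16 was lost without any 1 library other than replicate 3 of either pull-down arm, with adjusted p up to 0.0819. These fits and their alternatives took 1 estimate of the spread for both assays. It lies between the smaller spread of RNA-seq and the larger one of the pull-down, so the standard errors for pull-down values may be too small. At 12 h no member passed with edgeR, against 1.34% of all genes, 0.984% upward and 0.357% downward. SNHG5 and SNHG6 had an unadjusted p under 0.05, and SNHG6 passed with DESeq2 (-0.61, adjusted p = 0.0148).

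Pull-down against RNA-seq within 1 mimic compares RNA kept on the beads with RNA made without that step, also with the scrambled mimic, which serves as the background. Retention on the beads and other differences in how pull-down and RNA-seq libraries were made, such as the cytoplasmic extract, cannot be told apart here. At 72 h most members were lower in the pull-down with either mimic. With miR-497-5p-RE 8 of 10 were lower and 1 higher, against 65.8% of all genes called, 35.2% lower and 30.6% higher. With Control 7 were lower and 2 higher, against 63.8% of all genes, 34.1% lower and 29.7% higher. SNHG3 was the lowest in both, at -2.1 ± 0.25 with miR-497-5p-RE and -2.33 ± 0.24 with Control. SNHG5 stood at -2 ± 0.06 with miR-497-5p-RE and -1.92 ± 0.05 with Control, and SNHG1 at -1.88 ± 0.13 with miR-497-5p-RE and -1.58 ± 0.12 with Control.

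SNHG16 was below its RNA-seq level in the 72 h pull-down of both mimics, at -0.92 ± 0.07 with miR-497-5p-RE and -1.23 ± 0.07 with Control. SNHG7 was higher in the pull-down with both, at 0.45 ± 0.12 with miR-497-5p-RE and 0.43 ± 0.11 with Control. DIPK1B, which shares 1094 exonic bases with SNHG7, was higher too, at 1.35 ± 0.07 with miR-497-5p-RE and 1.11 ± 0.07 with Control. The part of DIPK1B reads in the SNHG7 counts was not tested. GAS5 was lower with miR-497-5p-RE (-0.84 ± 0.1, adjusted p = 1.47e-06) and not called with Control (-0.23 ± 0.1, adjusted p = 0.0533). The test of that difference is the -0.61 given above. SNHG12 was higher with Control only among the called values (0.36 ± 0.11, adjusted p = 0.00772). Scaling by library totals moved the median of all genes from -0.16 to -0.41 with miR-497-5p-RE and from -0.15 to -0.53 with Control. It gave 8 lower and none higher with each, and turned SNHG12 with Control to -0.02. The call of SNHG12 was also lost without a filter on low counts and without replicate 2 of the Control pull-down. GAS5 with Control passed with library totals (-0.61), without the filter (-0.33) and without replicate 3 of the Control pull-down (-0.31) or of the Control RNA-seq (-0.3). SNHG15 with miR-497-5p-RE lost its call with the length offset and without replicate 2 or 3 of the pull-down.

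At 12 h the pull-down departed less from RNA-seq. With miR-497-5p-RE 2 members were higher and 4 lower, against 47.2% of all genes called, 22.6% higher and 24.6% lower. With Control 3 were higher and 1 lower, against 46.6% of all genes, 19.7% higher and 26.9% lower. SNHG3 was again lower with both, at -1.04 ± 0.16 with miR-497-5p-RE and -1.31 ± 0.16 with Control. SNHG16 was higher with both, at 0.53 ± 0.1 with miR-497-5p-RE and 0.33 ± 0.1 with Control, and so was SNHG7, at 0.46 ± 0.13 with miR-497-5p-RE and 0.69 ± 0.13 with Control. The SNHG7 neighbour DIPK1B was again higher as well, at 0.77 ± 0.13 with miR-497-5p-RE and 0.92 ± 0.13 with Control. SNHG6 was higher with Control (0.72 ± 0.12, adjusted p = 7.4e-05), while SNHG5 (-0.32 ± 0.1), SNHG8 (-0.42 ± 0.15) and SNHG1 (-0.3 ± 0.08) were lower with miR-497-5p-RE. With Control, library totals moved the median of all genes from -0.08 to -0.25. They gave 2 members higher and 2 lower and removed the call of SNHG16. That call was also lost without replicate 1 of the Control RNA-seq or replicate 3 of the Control pull-down. With miR-497-5p-RE, SNHG8 was lost without replicate 1 of either assay or replicate 2 of the pull-down, SNHG5 without replicate 2 of the pull-down and SNHG7 without replicate 3 of RNA-seq.

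**Figure D5:**
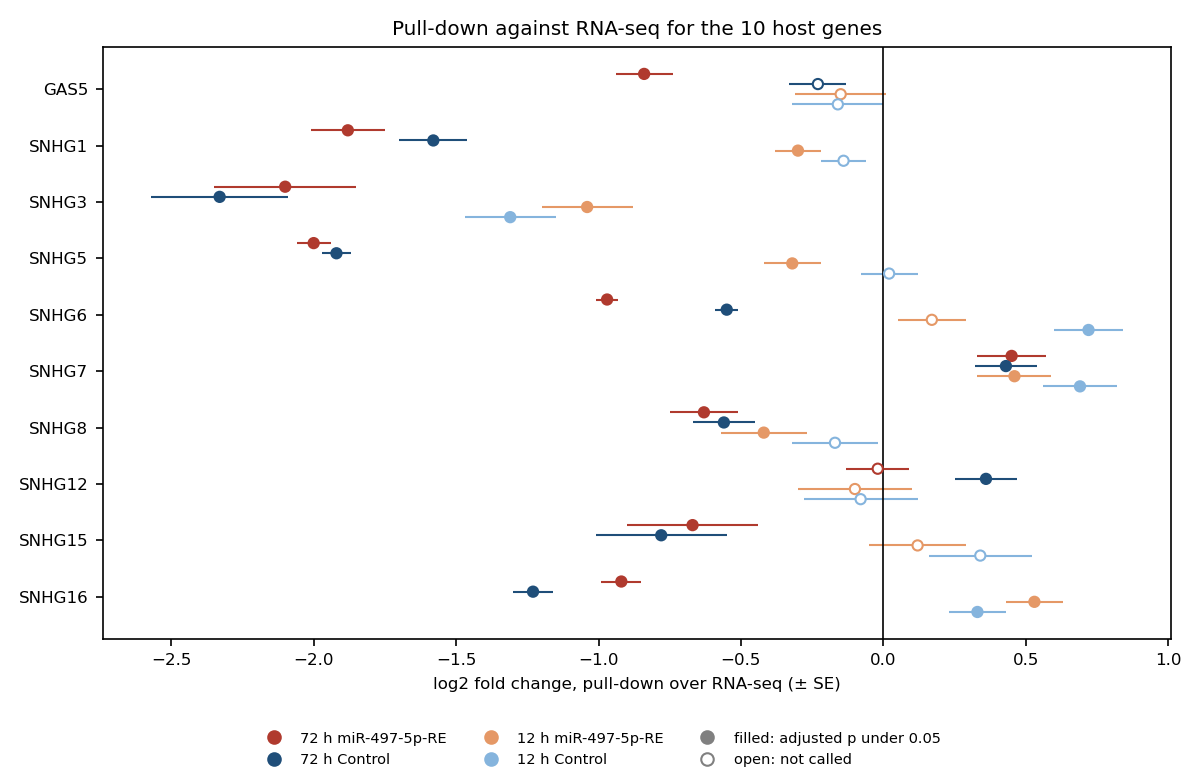
Log2 fold change of pull-down over RNA-seq with its standard error (horizontal axis) for each gene with miR-497-5p-RE and with Control at both times, filled where the adjusted p was under 0.05. At 72 h SNHG1, SNHG3 and SNHG5 lie between -2.33 and -1.58 with both mimics, and SNHG7 lies to the right of 0 in all 4 comparisons. DIPK1B, which shares exonic bases with SNHG7 and is not drawn, was also higher in the pull-down in all 4.

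Set against the sites, the 3 genes with a full seed match in their counted exons were SNHG16, SNHG12 and SNHG1. Canonical exons outside the counted ones were not searched. In the 72 h pull-down SNHG16 rose and SNHG12 and SNHG1 fell, and in 72 h RNA-seq SNHG16 rose and SNHG12 and SNHG1 fell as well. Of all genes 22.7% passed in that pull-down comparison and 57.5% in that of RNA-seq. The pull-down calls of SNHG12 and SNHG1 were lost under 6 and 7 of 14 alternatives. Of the 6 genes without any match in their counted exons, GAS5, SNHG5 and SNHG6 rose in 72 h RNA-seq and SNHG3 fell. The call of SNHG5 was lost under 6 of 14 alternatives. In the main fit of the 72 h pull-down none of these 6 was called. The part of the sites in these changes was not tested. The mimic comparisons of the pull-down and of RNA-seq share no library, nor do those of 72 h and 12 h, but the comparison between times uses the same Control RNA-seq libraries as the mimic comparisons.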

How the data were processed

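Per the submitters' processing notes, Trimmomatic 0.36, STAR 2.5.2b and featureCounts of Subread 1.5.2 were used with GRCh38. The deposited files hold whole-number read counts per gene, 1 file per library, without normalization, and no source used here gives the strand setting. Of 57500 identifiers, 56410 (98.1%) matched GENCODE release 44, which gave symbols, positions and exons. Reads shared by overlapping genes or near-identical copies may be lost or misplaced.

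The quasi-likelihood test of edgeR 4.0.16 (R 4.3.3; TMM scaling, default low-count filter, robust dispersion) was run on the 12 libraries of an assay, or on the 12 libraries of a time for contrasts between assays. Adjusted p-values are Benjamini-Hochberg over all genes tested, threshold 0.05. CPM are TMM-scaled within an assay, except those of cell type markers, which are relative to library totals. The 13 contrasts, with DESeq2 1.42.0, other scalings, no filter, a transcript length offset (lowess span 0.3), a replicate block, 6-library fits and fits without 1 library as alternatives, are reported. The edgeR fits of each assay and of the 72 h libraries were also run on simulated counts. For 72 h these had the same spread in both assays, so they cannot tell how unequal spreads act. The 10 members, the 5 lists and the tests were chosen with earlier results of these data known. All 10 members were named, with up to 3 genes per list and comparison by smallest adjusted p, the 5 genes most like GAS5, and overlapping or adjacent genes. Library totals (8262425 to 30650982) set the precision of counts. Sequences at some starts and sites are not reported here.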

Additional observations from a re-analysis of the deposited data

Results flagged for a closer look

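The effect of miR-497-5p-RE in RNA-seq differed between 72 h and 12 h, by edgeR's test of the difference, in 8 members. The share of all genes was 48.8%, and of the 8 members only GAS5, SNHG1 and SNHG16 kept their calls under every alternative. On the log2 scale, 72 h minus 12 h, the differences were 0.34 for SNHG16, 0.27 for GAS5, -0.15 for SNHG5, -0.26 for SNHG3, -0.27 for SNHG1, -0.28 for SNHG15, -0.3 for SNHG7 and -0.31 for SNHG12. In the pull-down the same contrast was called for SNHG16 alone among the members, at 0.5, against 12.2% of all genes. That call was lost under 7 of 19 alternatives.

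The effect at 72 h also differed between pull-down and RNA-seq, by the test of that difference, at 0.32 for SNHG16, -0.42 for SNHG6 and -0.61 for GAS5. Of all genes 14.5% were called. The calls of GAS5 and SNHG6 held under every alternative, and that of SNHG16 was lost under 10 of 19. All these fits took 1 estimate of the spread for both assays, so their standard errors may be too small. For SNHG6 the standard error was 0.06 for the difference and 0.12 for the effect in the fit of the pull-down alone. Groups of 3 libraries were too small to be searched for single outlying libraries.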

How the results depend on the processing

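Of the values reported, 6 of 7 calls in 72 h RNA-seq (all but SNHG5), 7 of 10 between times in Control cells (all but SNHG1, SNHG3 and SNHG8), 2 of 6 in 12 h RNA-seq (SNHG5 and SNHG6) and 1 of 3 in the 72 h pull-down (SNHG16) kept their direction and stayed past the threshold under every alternative. The number of members called with miR-497-5p-RE in 12 h RNA-seq was 6, and it was 3 without a filter on low counts, with the length offset, with the length offset and replicate block, and in the fit of 6 libraries. Fits without 1 library gave 2 to 6. For the difference between times in RNA-seq the number was 8, and it was 3 with the length offset, 4 with the offset and the block, and 5 to 8 without 1 library. In the 72 h pull-down it was 3, and 1 with the offset, with or without the block, and 1 to 3 without 1 library. For the difference between times in the pull-down it was 1, and 0 by library totals and 0 to 2 without 1 library. For pull-down minus RNA-seq at 12 h it was 0, and 1 without the filter or with DESeq2, and 0 to 1 without 1 library.

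Signs turned as follows, and the cause was not tested. By library totals, SNHG3 and SNHG12 in 12 h RNA-seq, SNHG5 and SNHG8 in 72 h RNA-seq and SNHG12 in the Control pull-down against RNA-seq at 72 h each came to -0.02, and in Control cells between times SNHG1 came to -0.06 and SNHG3 to -0.07. With the length offset, with or without the block, SNHG12 at 12 h came to -0.01, SNHG15 at 72 h to 0.03, SNHG5 in the difference between times to 0.02 and SNHG8 between times to -0.16. Without 1 library, SNHG12 at 12 h ran from -0.06 to 0.13 and SNHG3 from 0 to 0.05. Of the 64 uncalled member results, 15 passed under at least 1 alternative. For 43 that passed under none and were not given by value, 101 of 702 alternative values had the other sign, from -0.29 to 0.23. Same-numbered libraries deviated together with correlations of -0.14 to 0.17, and in no comparison was every same-numbered pair the closest match. No pairing by number was seen, but these correlations cannot tell whether same-numbered libraries shared a culture. The replicate block alone left the number of members called as it was in all 13 comparisons (6 in 12 h RNA-seq, 7 in 72 h RNA-seq). Pull-down spread limits what could be detected there.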
